A study of Mus musculus with 6 samples.

Results

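Granzymes and perforin are the killing proteins of cytotoxic T cells, and they were followed here as 10 genes: the granzymes Gzma, Gzmb, Gzmc, Gzmd, Gzme, Gzmf, Gzmg, Gzmk and Gzmm, and perforin, Prf1. The genes were taken by symbol from the deposited count table, and all 10 had a row among its 49492. RNA came from splenic CD8 T cells of mice on a C57/BL6 background, 6 to 8 weeks old, isolated as naive cells and then stimulated for 24 hours with plate-bound anti-CD3 and soluble anti-CD28, each at 1 µg/ml. Both groups carried the OT-I transgene, which gives CD8 T cells one receptor for an ovalbumin peptide. The WT group (replicates 1 to 3) was wild type OT-I, and the KO group (replicates 4 to 6) was NIK-CD4Cre-OT-I. In the KO group Cre is driven by Cd4 sequences, which act in developing T cells. Its target, NIK, is the kinase that starts the noncanonical NF-kB pathway. The labels do not say whether the WT mice carried Cre, nor whether the libraries are from separate mice, so the tests cover the spread among the 6 libraries only.

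A killer cell stores granzymes and perforin together in granules and releases them at the contact with its target. Perforin makes pores in the target membrane, and granzymes, a family of serine proteases, pass into the target and cut proteins there. Granzyme B cuts after aspartate and starts apoptosis through caspases, whereas granzyme A has trypsin-like specificity. Naive CD8 T cells hold little of these proteins, and the genes are induced when the cells are activated.

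Total counts were 41311346 to 47851445 per library and did not separate the groups (exact two-sided permutation p = 0.5, where 3 against 3 libraries cannot go below 0.1). Levels are given as normalised CPM, which relate the reads of a gene to all counted reads of its library after TMM scaling, and 3 counts equal 0.0627 to 0.0722 CPM, for counting error only. The T cell genes Cd3e, Cd8a and 6 others summed to 2650 to 2743 CPM in WT and 2683 to 2776 CPM in KO libraries. Map3k14, the gene of NIK, was at 53.6, 65.5 and 65.3 CPM in WT replicates 1, 2 and 3 and at 50.7, 64.5 and 54.7 CPM in KO replicates 4, 5 and 6. These values overlapped, and a count over a whole gene does not check a deletion of some exons, so every direction is between libraries as they are labelled. Xist counts showed that WT replicates 1 and 3 and KO replicate 6 came from females and the others from males, so that both groups mixed the sexes.

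Of the genes, 6 lie in 1 cluster on chromosome 14, and their promoter windows are shown because the cluster holds the most and the least abundant granzymes side by side. On GRCm38 (the mm10 assembly) the cluster spans 144635 bases, from Gzme at 56117626 to Gzmb at 56262260, with all 6 genes on the minus strand. Gzma and Gzmk lie on chromosome 13, Gzmm and Prf1 on chromosome 10. Each window runs from 250 bases before to 50 bases after the start of transcription given by RefSeq (GRCm38.p6), which had a window for all 10 genes and a second one for Gzmm. Capitals mark matches to the motif letters searched on both strands: AP-1 (TGANTCA), CRE (TGACGTCA), RUNX (TGTGGT), NF-kB (GGG and CC with any 5 bases between) and T-box (AGGTGTGA). Shown are the abundant Gzmb and Prf1, the weakly detected Gzmc and Gzmf, and Gzmd, which had no count.
Gzmb, chr14:56262285-56262584, minus strand: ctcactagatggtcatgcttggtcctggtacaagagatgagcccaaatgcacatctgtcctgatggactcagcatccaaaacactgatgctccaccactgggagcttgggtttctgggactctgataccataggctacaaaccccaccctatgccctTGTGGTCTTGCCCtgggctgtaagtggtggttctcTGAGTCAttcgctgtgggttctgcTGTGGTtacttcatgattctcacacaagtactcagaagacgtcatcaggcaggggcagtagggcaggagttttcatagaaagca
Gzmc, chr14:56234608-56234907, minus strand: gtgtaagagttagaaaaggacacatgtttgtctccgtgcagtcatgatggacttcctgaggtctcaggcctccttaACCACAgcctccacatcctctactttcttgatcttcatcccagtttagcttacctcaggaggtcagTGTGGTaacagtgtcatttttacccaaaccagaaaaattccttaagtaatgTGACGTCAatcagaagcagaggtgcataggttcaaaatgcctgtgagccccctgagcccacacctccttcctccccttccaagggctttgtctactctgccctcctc
Gzmf, chr14:56211358-56211657, minus strand: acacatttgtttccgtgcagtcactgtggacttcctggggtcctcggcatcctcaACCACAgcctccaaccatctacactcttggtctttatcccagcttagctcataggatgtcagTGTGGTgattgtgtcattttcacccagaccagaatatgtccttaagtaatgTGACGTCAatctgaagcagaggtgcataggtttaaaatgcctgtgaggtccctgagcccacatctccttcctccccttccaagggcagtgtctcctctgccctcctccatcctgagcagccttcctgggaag
Gzmd, chr14:56132544-56132843, minus strand: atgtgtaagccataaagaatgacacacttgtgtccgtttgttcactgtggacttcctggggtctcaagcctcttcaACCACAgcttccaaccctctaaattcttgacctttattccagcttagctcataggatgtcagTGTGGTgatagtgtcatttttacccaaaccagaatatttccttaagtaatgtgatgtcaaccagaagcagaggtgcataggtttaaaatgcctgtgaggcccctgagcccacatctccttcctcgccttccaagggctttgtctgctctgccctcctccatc
Prf1, chr10:61297586-61297885, plus strand: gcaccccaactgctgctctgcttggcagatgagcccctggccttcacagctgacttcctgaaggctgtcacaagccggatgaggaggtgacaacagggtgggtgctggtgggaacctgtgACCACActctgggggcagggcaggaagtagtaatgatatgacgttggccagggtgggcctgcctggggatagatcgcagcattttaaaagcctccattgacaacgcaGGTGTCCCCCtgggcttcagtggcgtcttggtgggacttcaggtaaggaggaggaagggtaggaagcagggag

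The Gzmb window, as placed by its RefSeq start, differed in letters from those of its cluster neighbours. Aligned end to end, the windows of Gzmc, Gzmd, Gzme, Gzmf and Gzmg shared 73.5% to 93.4% of positions with each other over 10 pairs, and 43.5% to 47.8% with the Gzmb window. The longest run common to those 5 windows, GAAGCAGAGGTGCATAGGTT, has 20 bases, was absent from the Gzmb window, and occurred in 5 of all 32851 windows, which were those 5. Gzmb alone among the 11 windows held the AP-1 letters, at -58 from its RefSeq start, as did 7.81% of all windows. Gzmc, Gzmf and Gzmg held the CRE letters, found in 1.79% of all windows. The RUNX letters stood in 9 of the 11 windows, against 16.8% of all windows. They occurred at 2 places in Gzmb and in each of the Gzmc to Gzmg windows, at 1 place in Gzma, Prf1 and 1 Gzmm window, and not in the Gzmk window. As the Gzmc to Gzmg windows are alike in sequence, they are not independent cases in the RUNX and CRE counts. The broad NF-kB letters were in 4 of the 11 windows (Gzmb, Gzmk, Prf1 and 1 of Gzmm) and in 50.8% of all windows, and the Gzmb match overlapped one of its RUNX matches. The T-box letters, found in 1.28% of all windows, were in none of the 11. These matches describe letters and not bound sites. For Gzmb the GENCODE start, at 56262260, lies downstream of the window taken from the RefSeq start. The GENCODE starts of Gzmc to Gzmg lie inside their windows, so the Gzmb window may be out of step with theirs. Its lower identity, the absent run and the AP-1 position hold for the RefSeq windows only. Windows set on the GENCODE starts were not compared.

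Granzyme B dominated the family in every library. It contributed 99.7% to 99.8% of all reads counted on the 9 granzyme genes, and the lowest share was 99.65% in WT replicate 3 (95% Wilson interval 99.61% to 99.69%, counting error only). Per kilobase of exons, Gzmb stood at 772.2 CPM per kb ± 300.1 (SD, n = 6), and Prf1 came next at 16.2 CPM per kb ± 3.54 (SD, n = 6), a level 47.6 times lower. Below them lay Gzmc at 0.953 ± 0.383, Gzma at 0.676 ± 0.948 and Gzmm at 0.605 ± 0.154 CPM per kb (SD, n = 6 each). The ranges of mean ± SD of these 3, over WT and KO libraries together, overlapped, and their order was not tested. Within libraries, Gzmc lay above Gzmm per kb in all but KO replicate 5. The Gzmb level was 810.3 times that of Gzmc. Gzmf followed at 0.215 CPM per kb ± 0.105 and Gzmk at 0.0631 CPM per kb ± 0.0556 (SD, n = 6 each). Gzme had 1 count in all, in WT replicate 3. Gzmd and Gzmg had 0 counts in all 6 libraries, so that Gzmb was at least 5003-fold higher per kb than Gzmd, and at least 4717-fold higher than Gzmg, in each library, against a floor of 3 counts per library.

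**Figure D1:**
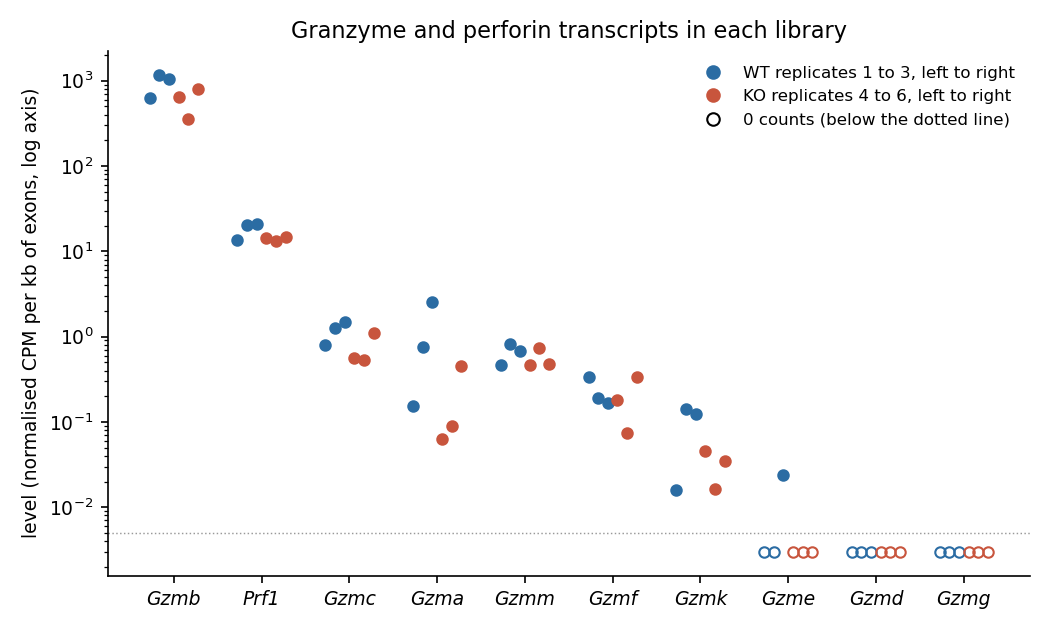
Level of each granzyme and perforin gene in normalised CPM per kb of exons (log axis), 1 point per library, with open points below the dotted line for 0 counts. Gzmb lies between 353.9 and 1178, Prf1 lies between 13.2 and 20.9, and the other genes lie at or below 2.53.

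The low end of this order touches on how reads were assigned. The coding sequences of Gzmc to Gzmg were 71.5% to 93.3% identical over 10 pairs, and those with Gzmb were 65.3% to 76.2% identical. Of all 50-base stretches of the Gzmd transcript, 21.9% also occur in transcripts of other genes, mainly Gzme and Gzmg. The share was 20.6% for Gzme, 19.8% for Gzmg, 7.36% for Gzmf and 4.14% for Gzmc. It was 0% for Gzmb, Gzma, Gzmk, Gzmm and Prf1. The values of Gzmc to Gzmg are therefore uncertain where reads fell in shared stretches, whereas the transcript of Gzmb is told apart from its neighbours at this length, although no source used here gives the read length. Gzmk overlaps the gene Esm1 and Gzmf overlaps Gm4022, and without a stated strand setting reads there cannot be told apart. Gzmn, the remaining granzyme of the cluster, had 0 counts. The mast cell and neutrophil protease genes near the cluster were also at or close to 0, with Mcpt1, Mcpt2, Mcpt4, Mcpt9, Cma1 and Cma2 at 0 counts, Ctsg at 1 count in WT replicate 3, and Mcpt8 at up to 2 counts in a library.

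The comparison of KO with WT asks how loss of NIK in T cells changes gene expression in stimulated CD8 T cells. None of the 10 genes was called different by edgeR's quasi-likelihood test at a Benjamini-Hochberg adjusted p under 0.05 over all 15186 genes tested, where 0.00659% of genes were called. Of the 10 genes, 5 passed the filter on low counts (Gzma, Gzmb, Gzmc, Gzmm and Prf1), and all 5 had lower estimates in KO, beside 47.6% of all genes tested. Their median log2 fold was -0.66, beside 0.01 over all genes tested. At an unadjusted p under 0.05, edgeR had 1 of the 5, Gzma, beside 7.26% of all tested genes at that p and 3.44% that were lower in KO, and DESeq2 called 0 of them at an adjusted p under 0.05, where it called 0.657% of genes. In each of the 5 genes the groups overlapped, beside 6.07% of tested genes whose KO values all lay under the WT values and 6.68% whose KO values all lay above. The members, and the lists of related genes below, were chosen with earlier results of these data known. Their counts beside the shares of all genes are therefore descriptions and not tests.

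Gzmb, whose protein is the main apoptosis-inducing granzyme (chromosome 14, 56258838 to 56262260), had levels of 890.7, 1691 and 1490 CPM in WT replicates 1, 2 and 3. It was at 924.1, 508.1 and 1149 CPM in KO replicates 4, 5 and 6. WT replicates 2 and 3 were the highest libraries and KO replicate 5 the lowest, and WT replicate 1 lay below KO replicates 4 and 6. The means were 1357 CPM ± 416.5 in WT and 860.3 CPM ± 325.0 in KO (SD, n = 3 each), a fold of 0.634 whose 95% interval ran from 0.365 to 1.10. The log2 fold was -0.66 (SE 0.34; edgeR adjusted p = 0.70). It ran from -0.92 without KO replicate 6 to -0.39 without KO replicate 5, and no setting led to a call.

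The spread of Gzmb between libraries of 1 group was wide for so abundant a transcript. Its highest library exceeded its lowest 1.90-fold within WT and 2.26-fold within KO. The within-group SD of its log2 CPM was 0.55, larger than that of 98.9% of the 9649 tested genes that averaged 5 CPM or more, and the median over all tested genes was 0.13. For Prf1 this SD was 0.26, larger than in 92.5% of those 9649 genes.

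Prf1 (chromosome 10, 61297833 to 61304680), which encodes the pore-forming protein, stood at 35.1, 53.1 and 54.1 CPM in WT replicates 1, 2 and 3. In KO replicates 4, 5 and 6 it was at 37.4, 34.0 and 38.0 CPM. The KO libraries were close together and overlapped with WT replicate 1 alone, while WT replicates 2 and 3 lay above all of them. The means were 47.4 CPM ± 10.7 and 36.5 CPM ± 2.13 (WT and KO, SD, n = 3 each), a log2 fold of -0.38 (SE 0.16; edgeR adjusted p = 0.69) and a fold of 0.769 with a 95% interval from 0.591 to 1.00. Without WT replicate 1, Prf1 was called lower in KO, with a log2 fold of -0.56 and an edgeR adjusted p of 0.031, and 0.764% of all genes were called in that fit. The call thus turned on 1 library, and without each of the others the log2 fold lay between -0.41 and -0.27 with no call.

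**Figure D2:**
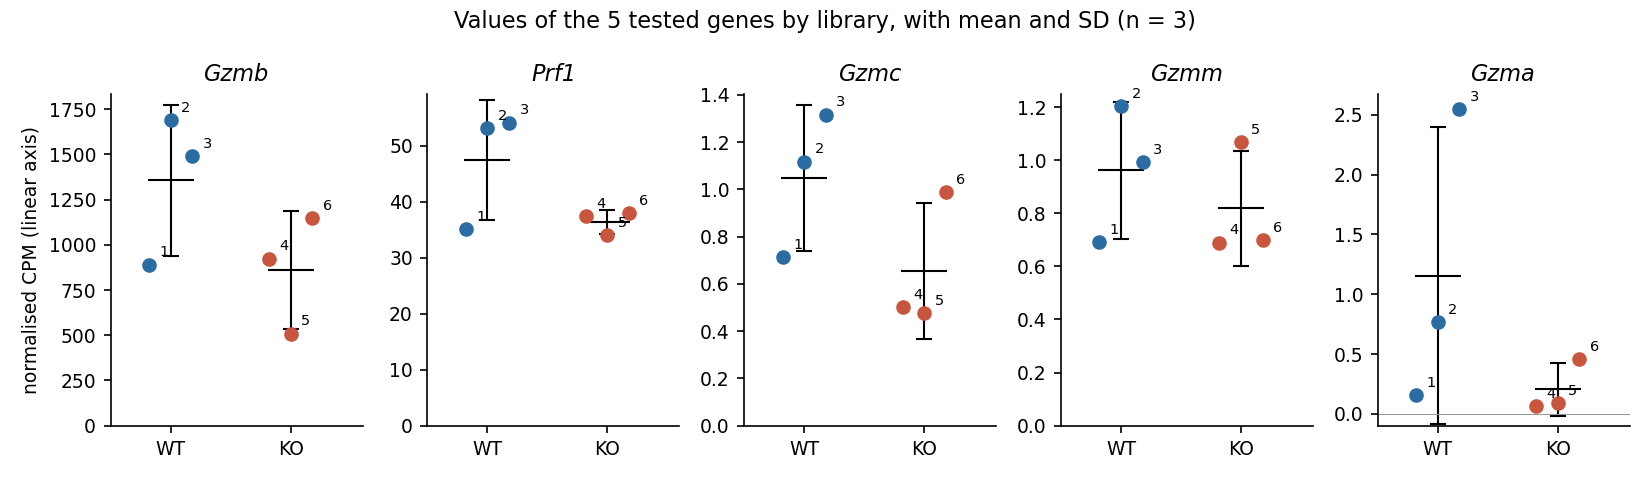
Normalised CPM (linear axes) of the 5 tested genes in each library, with the replicate number beside each point and bars for the mean and SD (n = 3). WT replicate 1 lies within the range of the KO libraries for each gene, and WT replicates 2 and 3 lie above all KO libraries for Gzmb, Prf1, Gzmc and Gzma.

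Gzma, the trypsin-like granzyme (chromosome 13, 113093825 to 113100981), had the lowest fold and the fewest reads behind it. Its counts were 7, 35 and 118 in WT replicates 1, 2 and 3, and 3, 4 and 19 in KO replicates 4, 5 and 6. WT replicate 3 held most of the WT reads, and KO replicate 6 lay above WT replicate 1. In CPM the means were 1.16 ± 1.24 in WT and 0.204 ± 0.220 in KO (SD, n = 3 each), so each SD was larger than its mean. The log2 fold was -2.53 (SE 1.07; edgeR adjusted p = 0.69, DESeq2 adjusted p = 0.28), and without WT replicate 3 it was -1.21. Its within-group SD, 1.56 on the log2 scale, exceeded that of 99.6% of all tested genes.

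Gzmc and Gzmm were each near 1 CPM. Gzmc, a cluster granzyme known from strongly activated T cells, was counted 32, 51 and 61 times in WT replicates 1, 2 and 3, and 24, 21 and 41 times in KO replicates 4, 5 and 6. KO replicate 6 lay above WT replicate 1, and the log2 fold was -0.69 (SE 0.36; edgeR adjusted p = 0.70). Gzmm, which encodes a granzyme that cuts after methionine and leucine, had 31, 55 and 46 counts in WT and 33, 47 and 29 counts in KO replicates, in the same order. Its groups overlapped throughout, with a log2 fold of -0.23 (SE 0.29; edgeR adjusted p = 0.86), and the estimate came nearest to 0 without WT replicate 2, at -0.04.

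The remaining genes were too scarce for the filter. For Gzmf the counts were 14, 8 and 7 in WT replicates 1, 2 and 3, and 8, 3 and 13 in KO replicates 4, 5 and 6, with no order between the groups. Gzmk, a tryptase often seen in memory cells, had 1, 9 and 8 counts in WT and 3, 1 and 2 counts in KO replicates. With no filter on low counts, edgeR gave an adjusted p of 0.93 for Gzmf and 0.80 for Gzmk, over 26275 genes. No difference in Gzmk or Gzmf was called at these low counts, which does not show equal levels. Gzmd and Gzmg allow no fold. For Gzme the same fit gave a log2 fold of -1.86 (edgeR adjusted p = 0.80), which rests on 1 count.

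**Figure D3:**
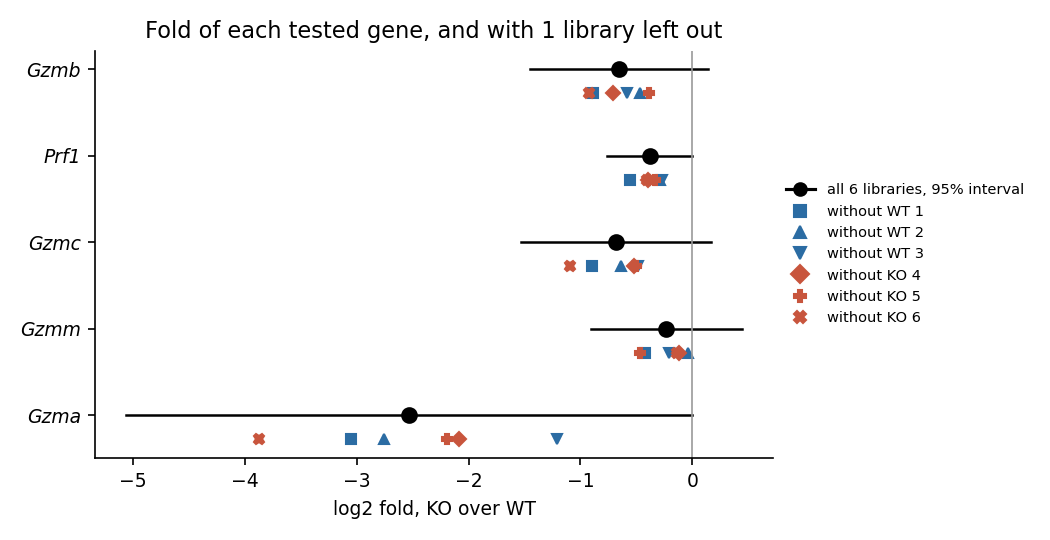
Log2 fold of KO over WT for each tested gene, with the 95% interval from edgeR over all 6 libraries (black) and the estimate with each library left out (coloured symbols below). All estimates lie below 0, from -3.88 for Gzma to -0.04 for Gzmm, and 4 of the 5 intervals include 0, while that of Gzma ends at a fold of 0.996.

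The members did not all share 1 profile over the libraries. Each gene's log2 CPM was centred on its mean over the 6 libraries, and 2 profiles were compared by the root mean square of their difference. Gzmb and Gzmc differed by 0.27, Gzmb and Prf1 by 0.36, and Gzmb and Gzmm by 0.60 log2 units. Gzmb, Gzmc and Prf1 were all highest in WT replicates 2 and 3. In KO replicate 5 Gzmb was 1.02 log2 units below its mean, whereas Gzmm was 0.29 above its own. In reads, the ratio of Gzmb to Prf1 was 14.9 in that library and 24.7 to 31.8 in the other 5.

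**Figure D4:**
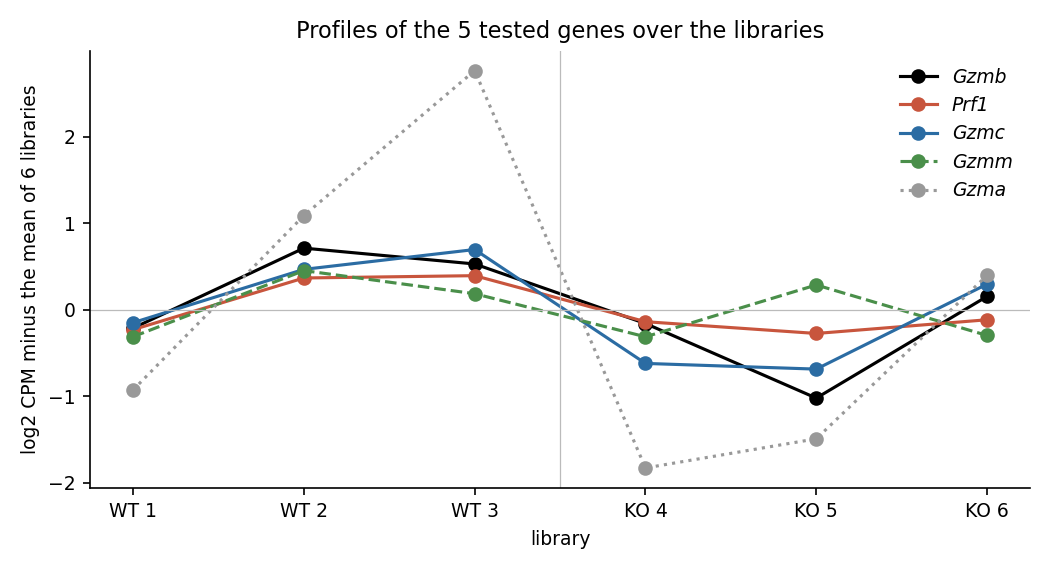
Log2 CPM of the 5 tested genes minus each gene's mean over the 6 libraries, with lines that join the points of 1 gene and imply no order. Gzmb, Prf1, Gzmc and Gzma peak in WT replicates 2 and 3, and Gzmm lies above its mean in KO replicate 5, where the other genes lie below theirs.

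Among the 15181 other tested genes, those with the profile most like that of Gzmb were Ehbp1 (difference 0.056), the pseudogene Bnip3l-ps (0.127) and Batf3 (0.129), where the median over all of them was 0.59. Batf3, an AP-1 family transcription factor, was at 13.8, 21.0 and 21.3 CPM in WT replicates 1, 2 and 3 and at 11.1, 6.43 and 14.8 CPM in KO replicates 4, 5 and 6. Like Gzmb it was lowest in KO replicate 5, and the groups overlapped through KO replicate 6 (log2 fold -0.80, edgeR adjusted p = 0.67). Ehbp1 and Bnip3l-ps were below 1 CPM in every library. Most like Prf1 were the kinase gene Lmtk3 (0.042), the transcript RP23-410L16.8 (0.051) and Bcl2 (0.054), against a median of 0.31. Bcl2, the survival factor, was at 267.0, 409.6 and 417.4 CPM in WT and 274.8, 263.5 and 316.4 CPM in KO replicates, in the same order. With 6 libraries and this many genes, such likeness is a description.

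Genes that store, mature and restrain the granule proteins had small folds. Of 14 tested, edgeR called 0, beside 0.00659% of all tested genes, and DESeq2 called 0, beside 0.657% of all genes it tested. None had an unadjusted p under 0.05 in edgeR, beside 7.26% of all tested genes. Among 14 genes, counts of 0 lie near these shares. The median log2 fold of the 14 genes was -0.01, with 8 of 14 estimates below 0, beside 47.6% of all tested genes. Ctsc, the protease cathepsin C that activates progranzymes, was at 111.7, 124.3 and 112.7 CPM in WT replicates 1, 2 and 3. It was at 110.3, 92.0 and 108.0 CPM in KO replicates 4, 5 and 6, so that its KO values all lay under the WT values by a small margin (log2 fold -0.17, edgeR adjusted p = 0.70). Srgn, the proteoglycan serglycin that holds granzymes in the granule, was 0.885-fold the WT level (edgeR adjusted p = 0.74). Serpinb9, the inhibitor that protects the cell from its own granzyme B, averaged 194.0 CPM ± 21.3 in WT and 165.6 CPM ± 21.3 in KO ( SD, n = 3 each; edgeR adjusted p = 0.70). Serpinb6b, another serpin, and Cst7, cystatin F, which inhibits cathepsins in granules, had log2 folds of -0.15 and -0.10.

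The machinery of granule docking and release likewise had small folds. Of 11 tested genes edgeR called 0, beside 0.00659% of all tested genes, and DESeq2 called 0, beside 0.657% of all genes it tested. In edgeR 0 had an unadjusted p under 0.05, beside 7.26% of all tested genes. Among 11 genes, counts of 0 lie near these shares. The median log2 fold was -0.01. Rab27a, the small GTPase that docks granules, came first by p, with 125.8 CPM ± 9.58 in WT and 114.3 CPM ± 4.51 in KO (SD, n = 3 each; edgeR adjusted p = 0.70). The priming factor gene Unc13d had a log2 fold of -0.08, the adaptor subunit gene Ap3b1 one of 0.10, and the actin regulator gene Dock2 one of 0.08.

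Transcription factors known to act on granzyme and perforin genes had estimates below 0 for 14 of 19 genes, beside 47.6% of all tested genes, with a median log2 fold of -0.07. Of these 19, edgeR called 0, and its unadjusted p was under 0.05 for 2 with higher and 2 with lower KO values (beside 3.82% and 3.44% of all tested genes), while DESeq2 called 2, beside 0.657% of all genes it tested. These were Stat4, which transmits IL-12 signals, and Stat5a, which transmits IL-2 signals. Stat4 was at 63.3, 57.6 and 52.2 CPM in WT replicates 1, 2 and 3 and at 79.5, 72.3 and 76.1 CPM in KO replicates 4, 5 and 6. All KO libraries lay above all WT libraries (log2 fold 0.40, edgeR adjusted p = 0.53, DESeq2 adjusted p = 0.011). EdgeR called Stat4 without WT replicate 1 (adjusted p = 0.043), a fit in which 0.764% of all genes were called. Stat5a averaged 302.1 CPM ± 7.21 and 262.4 CPM ± 6.70 (WT and KO means with SD over 3 libraries; adjusted p = 0.53 in edgeR and 0.042 in DESeq2).

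The factors most often named as drivers of the cytotoxic programme were not called. Tbx21, which encodes T-bet, averaged 129.4 CPM ± 13.8 in WT and 120.0 CPM ± 19.3 in KO, and Eomes 219.0 CPM ± 9.80 and 228.1 CPM ± 52.6 (SD, n = 3 each; edgeR adjusted p = 0.85 and 0.94). The Eomes estimate, 0.06, turned negative without KO replicate 6. Runx3 had a log2 fold of -0.02, which turned positive without WT replicate 2, WT replicate 3 or KO replicate 4. Prdm1, the gene of Blimp-1, was low and variable, at 1.23, 3.15 and 4.49 CPM in WT and 1.23, 1.48 and 2.26 CPM in KO replicates (log2 fold -0.84, edgeR adjusted p = 0.71). It was highest in WT replicates 2 and 3 and KO replicate 6, as were Gzma and Gzmb. Tcf7, the factor of naive and memory cells, had a log2 fold of 0.33 and Zeb2 one of -0.35 (edgeR adjusted p = 0.60 and 0.63).

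**Figure D5:**
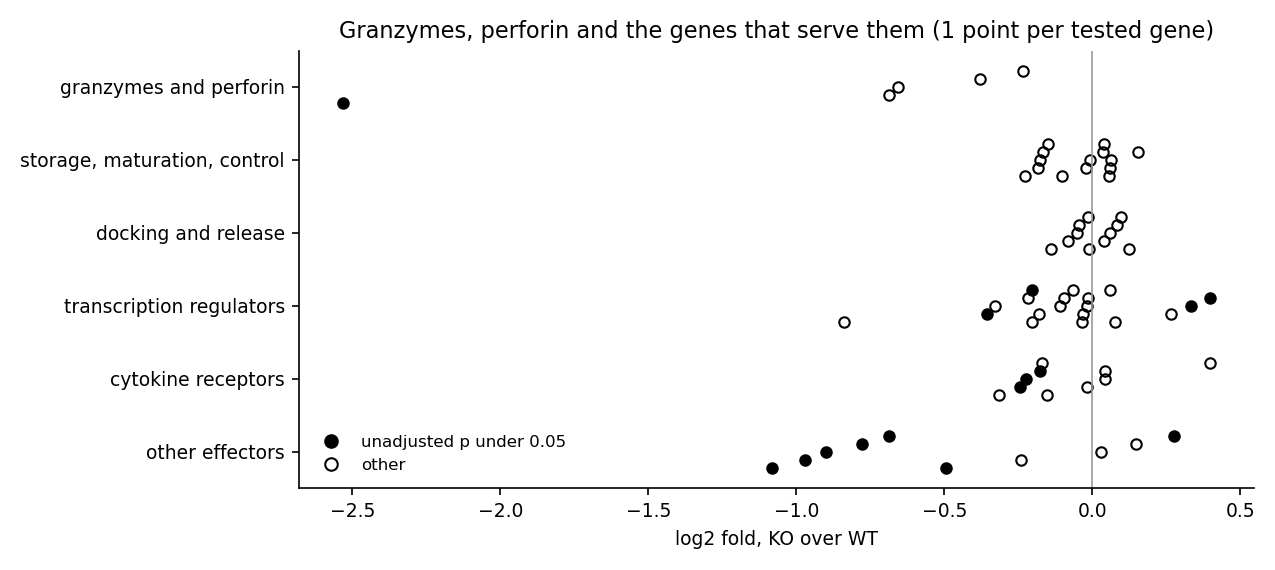
Log2 fold of KO over WT for each tested gene of the granzyme and perforin set and of 5 lists of related genes, with filled points for an unadjusted p under 0.05 in edgeR. Storage and release genes lie close to 0, and the other effectors include the lowest filled points apart from Gzma.

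Among cytokine receptors that feed granzyme expression, 7 of 10 estimates were below 0, beside 47.6% of all tested genes. EdgeR and DESeq2 called 0, beside 0.00659% and 0.657% of all genes that each tested. At an unadjusted p under 0.05 in edgeR, 3 were lower, beside 3.44% of all tested genes. The highest estimate was that of Il7r, the IL-7 receptor chain of naive and memory cells, named after its values were seen, at a log2 fold of 0.40. Il2ra, the high-affinity chain for IL-2, was at 902.4, 951.5 and 932.3 CPM in WT replicates 1, 2 and 3 and at 849.3, 706.9 and 796.6 CPM in KO replicates 4, 5 and 6. The groups did not overlap (log2 fold -0.24, edgeR adjusted p = 0.61), and KO replicate 5, lowest in Gzmb, was lowest here too. Il12rb1 and Il21r, receptors for IL-12 and IL-21, had log2 folds of -0.18 and -0.22, and Il2rb one of -0.17.

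Other effector molecules had KO estimates below 0 for 7 of 10 genes, beside 47.6% of all tested genes. Of these 10, edgeR called 0, its unadjusted p was under 0.05 for 6 with lower and 1 with higher KO values (beside 3.44% and 3.82% of all tested genes), and DESeq2 called 2, the chemokine genes Ccl4 and Xcl1, beside 0.657% of all genes it tested. The median log2 fold was -0.59, beside 0.01 over all genes tested. As this list was chosen with earlier results of these data known, its counts describe the listed genes and test nothing. The killing ligand Fasl, named after its values were seen, was at 1.78, 3.28 and 3.97 CPM in WT replicates 1, 2 and 3 and at 1.90, 1.73 and 1.64 CPM in KO replicates 4, 5 and 6. As with Prf1, the KO libraries overlapped with WT replicate 1 alone (log2 fold -0.78, edgeR adjusted p = 0.65). The killing ligand Tnfsf10, also named after its values were seen, had a log2 fold of 0.03. The lowest estimates of the list were those of Ifng and Csf2, also named after their values were seen. Their log2 folds were -1.08 and -0.97 (edgeR adjusted p = 0.69 and 0.63). Ifng was at most 67.5 CPM in KO and at least 69.9 CPM in WT libraries, while the Csf2 groups overlapped. For the chemokines Ccl3, Ccl4 and Xcl1 the log2 folds were -0.90, -0.69 and -0.49. EdgeR called Ccl3 and Xcl1 without WT replicate 1 (adjusted p = 0.044 and 0.034), a fit in which 0.764% of all genes were called. Ltb, a ligand of the noncanonical NF-kB pathway, had a log2 fold of 0.28.

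Markers of other cell types, several of which can carry granzymes, ranged from 0 to well above the minor granzymes. Of 10 NK cell markers, 9 had a mean under 1 CPM, and the defining genes Ncr1 and Klrb1c were at 0 to 0.0647 CPM and 0 to 0.173 CPM. The list summed to 608.9 to 646.7 CPM in WT and 515.6 to 664.5 CPM in KO, nearly all of it from Irf8, which activated T cells also express. The other members were mixed. Klre1 was at 0.356, 0.766 and 0.971 CPM in WT and 0.167, 0.136 and 0.289 CPM in KO replicates, and Klra9 was likewise highest in WT replicates 2 and 3, as was Gzma. Tyrobp went the other way, at 0.557, 0.788 and 0.410 CPM in WT and 1.19, 0.432 and 1.93 CPM in KO replicates, and Klra7 was at 0 to 0.0216 CPM in WT and 0.0241 to 0.0682 CPM in KO. The 6 innate lymphoid and gamma delta T cell markers summed to 61.3 to 72.0 CPM in WT and 52.6 to 73.7 CPM in KO, most of it from Trdc, the delta chain constant segment, at 33.9 to 49.8 CPM. The 4 markers of CD4 and regulatory T cells summed to 106.2 to 131.9 CPM in WT and 119.2 to 159.8 CPM in KO, most of it from Ctla4, which activated CD8 T cells also express, while Cd4 was under 1 CPM in every library. Foxp3, the factor of regulatory T cells, was at 4.7, 3.44 and 11.5 CPM in WT replicates 1, 2 and 3. In KO replicates 4, 5 and 6 it was at 1.90, 3.05 and 4.81 CPM (edgeR adjusted p = 0.70), and like Gzma it was highest in WT replicate 3 and lowest in KO replicate 4. Cd40lg averaged 2.11 CPM in WT and 1.53 CPM in KO. All 8 mast cell and basophil markers had a mean under 1 CPM, with Mcpt4, Tpsb2 and Tpsab1 at 0 counts. The 8 memory-type CD8 T cell markers summed to 738.7 to 769.7 CPM in WT and 694.9 to 799.0 CPM in KO, and were mixed. Ly6c2 averaged 16.6 CPM in WT and 47.2 CPM in KO, and Cxcr3 averaged 5.23 and 4.05 CPM. The 7 macrophage and monocyte markers summed to 25.8 to 41.1 CPM in WT and 24.4 to 54.5 CPM in KO. Among them Lyz2 averaged 0.815 and 2.79 CPM, and Itgam 0.452 and 0.418 CPM. EdgeR called 0 genes of either list. The 6 B cell markers, all of them tested and at a mean of at least 1 CPM, summed to 23.5, 70.4 and 45.3 CPM in WT and 26.6, 30.0 and 39.0 CPM in KO replicates, and were thus highest in WT replicates 2 and 3 and KO replicate 6, as was Gzmb. The part of these markers in the granzyme values was not tested. In bulk RNA, fewer cells making a transcript and less of it per cell cannot be told apart.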

How the data were processed

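RNA from 6 libraries of stimulated splenic CD8 T cells was extracted with Trizol and made into Illumina libraries, per the labels' protocols. The authors deposited 1 table of raw counts per gene. HTSeq 0.9.1, DESeq2 and mm10 are named with no role, per the submitters' processing notes, while the aligner, annotation and strand use are not stated there. KO was compared with WT by edgeR's quasi-likelihood test (version 4.0.16, R 4.3.3) with TMM factors after filterByExpr, with robust estimation and Benjamini-Hochberg adjustment over all tested genes and a threshold of 0.05. SEs and 95% intervals came from the fold and the F statistic. Log2 CPM for profiles used a prior count of 2. Exon lengths (union of exons) and transcripts came from GENCODE M21, and promoter windows from RefSeq GRCm38.p6. Groups were taken from sample titles, and the replicate numbers pair no libraries.

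All 10 genes were named whatever their values. From each of 6 further lists up to 4 genes with the smallest p were named, with Ctsc, Srgn, Serpinb9, Tbx21, Eomes, Prdm1, Runx3 and Il2ra, and for Gzmb and Prf1 the 3 genes of most similar profile. Members and lists were chosen with earlier results of these data known. Alternatives were other factors and filters, DESeq2 1.42.0, limma-voom (limma 3.58.1), a term for sex, summed cluster copies and each library left out. On simulated counts for KO against WT over 14974 genes, edgeR recovered 48% of changes of 1.5-fold, 62% of 2-fold, 98% of 4-fold and 90% of 8-fold, with 19 false calls. The changed genes were drawn at random, each with its own spread, so these rates are not those of the granzymes and perforin. Each tested member had a within-group SD larger than that of at least 71.9% of tested genes, and Gzmb of 93.5%.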

Additional observations from a re-analysis of the deposited data

How the results depend on the processing

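Over 5 granzyme and perforin genes and 77 values under other settings, 76 kept their direction and their side of the threshold, and 1 passed it, Prf1 without WT replicate 1. The number of these genes called ran from 0 to 1 when 1 library was left out, and was 0 under every other setting. Across all genes edgeR called 1, against 10 with no filter on low counts, 96 in DESeq2 and 1 to 119 with 1 library left out, the highest without WT replicate 1 and 2 without WT replicate 2. Of 494 values for 31 other genes, named by the rule above, 482 stayed on their side, 8 passed the threshold and 4 reversed. The 4 were Eomes without KO replicate 6 (-0.12), and Runx3 without WT replicate 2 (0.004), WT replicate 3 (0.037) and KO replicate 4 (0.047). Genes named after their values were seen are not among the 31. With 1 library left out Eomes ran from -0.12 to 0.21, and Runx3 from -0.093 to 0.047. The cause of these changes was not tested. With a term for sex the log2 folds of Gzmb and Prf1 were -0.65 and -0.40. On the gene's own strand 1 window, not 4, held the NF-kB letters, and 6 windows, not 9, held the RUNX letters. Those 6 were the windows of Gzmb and of Gzmc to Gzmg. No paired analysis was possible because the groups share no replicate numbers. The exact p for total counts lay between 0.1, the lowest value that 5 libraries allow, and 0.9 with 1 library left out. Without KO replicate 4, the KO totals (43675448 and 41311346) lay below every WT total (45012963 to 46548251). For Gzma, Gzmf and Gzmk the low counts limit the folds.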
